A study of Homo sapiens with 4 samples.

Results

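The NME genes encode the nucleoside diphosphate kinases and their relatives. The 9 members NME1 to NME9 were taken by gene name from the 58735 genes listed in each table. RNA-seq was performed on 4 libraries labelled Huh7, the name of a human liver cancer line. 2 carried a control short hairpin RNA (shCtrl 1 and 2) and 2 carried a hairpin against NME7 (shNME7 1 and 2). No time point, selection or other treatment is given in the labels, nor whether the replicates came from separate cultures. The p-values therefore describe the spread between these 4 libraries alone, which may be technical. The sources used here give neither the hairpin's sequence nor whether the cells were a pool or 1 clone.

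Nucleoside diphosphate kinases pass the terminal phosphate of a nucleoside triphosphate, usually ATP, to a nucleoside diphosphate through a phosphorylated histidine, which keeps the pools of GTP, CTP and UTP filled. NME1 and NME2 are the abundant cytosolic enzymes, and NME1 was first known as a metastasis suppressor. NME3, NME4 and NME6 are linked to mitochondria. NME7 is a component of the gamma-tubulin ring complex, which nucleates microtubules, and of ciliary axonemes. NME5, NME8 and NME9 are known mainly from cilia and sperm flagella, and NME8 and NME9 also carry a thioredoxin domain.

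A coding stretch around a histidine codon shows how close the members are to each other there. It is printed for the 6 members in which an asparagine codon, 2 further codons, the histidine codon, 1 codon, a serine or threonine codon and an aspartate codon follow each other. Each line has 30 coding bases of the GENCODE 29 principal transcript, 5′ to 3′, with the histidine codon in capitals. The stretch was found by this order of codons alone, and whether its histidine is the catalytic one was not tested. In NME7 it lies at coding positions 1048 to 1077 of 1128.
NME1: ggcaggaacattataCATggcagtgattct
NME2: ggcaggaacatcattCATggcagtgattca
NME3: ggcaagaacctgattCACggcagcgactcg
NME4: agcaggaatgtcatcCACgccagcgactcc
NME6: acccgcaacaccaccCATggttcggactct
NME7: atccagaatgctgttCACtgtactgatctg
On GRCh38 the NME1 and NME2 stretches, each split by an intron, lie within chr17:51161268-51161752 and chr17:51170045-51171511 on the plus strand. The NME7 stretch lies in 1 exon, chr1:169169468-169169497, on the minus strand. This order of codons was not found in the principal transcripts of NME5, NME8 and NME9, which says nothing about their enzyme activity.

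NME1 and NME2 lie one after the other on chromosome 17 and are the closest pair among NME1 to NME4. Over 456 aligned coding bases they had 369 identical ones (80.9%), against 64.0% to 70.1% for the other 5 pairs. The longest run of identical bases was 23, in the stretch printed here, where the 8 differing bases are in capitals.
NME1: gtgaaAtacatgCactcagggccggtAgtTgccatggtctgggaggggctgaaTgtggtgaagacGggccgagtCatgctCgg
NME2: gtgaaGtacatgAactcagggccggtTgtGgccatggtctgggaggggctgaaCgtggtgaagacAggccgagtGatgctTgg
The 83 bases are coding positions 193 to 275 of both genes, counted from the A of the start codon, within chr17:51160046-51161206 and chr17:51168308-51169983. The 2 coding sequences thus differ at 87 of 456 positions. The pseudogene NME2P1 on chromosome 12 is closer to NME2, with 97.3% identity over 411 aligned bases and an identical run of 72 bases.

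The annotation also places exons of NME1 and NME2 in another gene. The read-through NME1-NME2 (ENSG00000011052, chr17:51153590-51171744, plus strand) joins exons of both. All 456 coding bases (100%) of the NME2 principal transcript and 341 of the 456 (74.8%) of NME1 lie in its exons. Of the 1139 genes whose every exon base is also an exon of another gene on the same strand, 1104 (96.9%) were listed at 0 in all 4 libraries. Where such sharing was only with the opposite strand, 710 of 710 were at 0, against 57.2% of the 41758 genes that share no exon base. Among protein-coding genes alone, 251 of 282 (89.0%) and 17 of 17 were at 0, against 26.9% of the 11097 that share no exon base. NME2 has 2029 exon bases outside NME1-NME2, none of them coding in the principal transcript. The sources used here do not name the counting tool, and a low level of NME2 RNA cannot be told apart from fragments left uncounted in shared exons. The plot of shared exon bases shows the coding sequence of the 9 members by whether another gene also holds it.

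**Figure D1:**
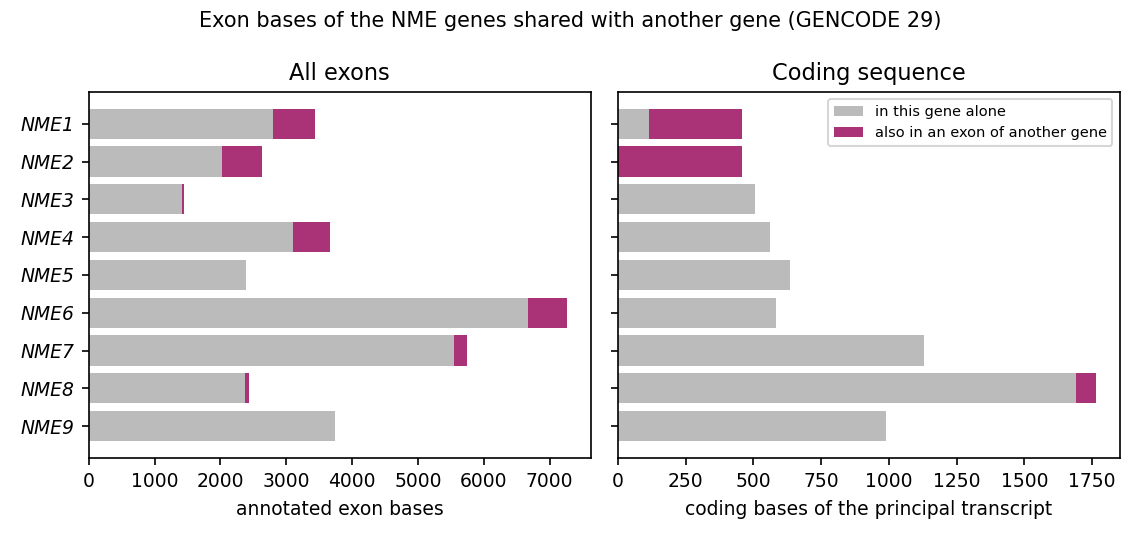
Exon bases (left) and coding bases of the principal transcript (right) of each NME gene in GENCODE 29, in bases; purple marks bases that are also in an exon of another gene on either strand, and grey those in that gene alone. The NME2 coding bar is purple throughout (456 bases), NME1 is purple over 341 of 456 bases, and NME8 is the other member with shared coding bases, 72 of 1764.

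The label of the cells was checked against marker genes. The 8 hepatocyte and hepatoma markers (ALB, APOA1, APOB, TTR, SERPINA1, AFP, HNF4A and GPC3) summed to 0.0516 to 0.110 FPKM a library, and APOA1, APOB and GPC3 were listed at 0 in all 4. FPKM is fragments per kilobase of exon, scaled to library size. These defining markers of liver cells are therefore near absent from libraries labelled as a liver cancer line. Of 6 fibroblast markers 4 reached 1 FPKM, with summed levels of 92.1 to 103 FPKM, mostly from COL3A1 (66.9 to 76.6 FPKM), and COL1A2 and DCN reached at most 0.0734. Of 5 leukocyte markers 4 were at 0 everywhere. The 4 endothelial markers summed to 2.29 and 1.94 FPKM in shCtrl against 2.81 and 3.47 in shNME7, with KDR at 0 and CDH5 the only one to reach 1 FPKM. Both shNME7 libraries were higher in that sum, and its part in the results was not tested. Each library held 14877906 to 16991397 fragments, recovered from the FPKM values.

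The targeted gene was the one member with a large difference. NME7 (ENSG00000143156, chr1:169132531-169367967, minus strand) stood at 3.64 FPKM in shCtrl 1 and 3.93 in shCtrl 2, against 0.835 in shNME7 1 and 0.626 in shNME7 2. Both shNME7 libraries lay far below both control libraries, at 22.1% and 16.5% of the control mean. The group means were 3.79 ± 0.210 and 0.731 ± 0.148 FPKM (SD, n = 2 each). Fewer cells with NME7 RNA and less NME7 RNA per cell cannot be told apart in bulk libraries. The 4 possible library pairs gave folds from 4.36 (shNME7 1 against shCtrl 1) to 6.28 (shNME7 2 against shCtrl 2). The remaining NME7 signal rested on 72 fragments (95% Poisson interval 56.3 to 90.7) and 61 fragments (46.7 to 78.4), against 332 (297 to 370) and 364 (328 to 403). These intervals cover counting error only.

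In limma-trend on log2(FPKM + 1), the main test, the NME7 difference (shNME7 minus shCtrl) was -1.47, with a 95% interval of -1.88 to -1.06 (adjusted p = 0.310). It did not pass at 0.05, and neither did any other of the 12866 tested genes (0%). At an unadjusted p under 0.05 there were 859 genes (6.68%), NME1 and NME7 among them, and NME7 ranked 3 by p. limma-voom on the recovered fragments called NME7 lower, with a difference of -2.39 (95% interval -2.94 to -1.84, adjusted p = 0.000998). That test called 16 of 15112 genes (0.106%), of which 14 were lower (0.0926%), and NME7 ranked 2 by p and 4 from the lowest by difference. At an unadjusted p under 0.05 limma-voom held 1197 genes (7.92%), with NME1, NME4 and NME7 among them. The adjusted p of NME7 ranged from 1.08e-05 to 0.562 over the 7 alternatives computed with all 4 libraries. Leaving out any 1 library moved the difference only between -2.59 and -2.17 in limma-voom.

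NME7 starts 3 bases from BLZF1, a gene for a Golgi protein that runs the other way, so the pair share a start region. The 30 bases around both starts, chr1:169367953-169367982 of GRCh38.p14 from RefSeq's promoter table, are shown on the minus strand (the NME7 strand), with the bases from the BLZF1 start to the NME7 start in capitals.
NME7: agctgttaaacaAACGgaagtaaaactgcc
BLZF1 stood at 9.36 and 11.1 FPKM in shCtrl, against 10.5 and 8.22 FPKM in shNME7. The groups overlapped, and the log2 difference was -0.12 (SE 0.17, limma-trend adjusted p 0.885). ATP1B1, the sodium pump beta subunit gene on the opposite strand, shares 192 exon bases with NME7, and it stood at 144 and 154 FPKM in shCtrl, against 155 and 140 in shNME7. These levels also overlapped, so neither neighbour followed the NME7 pattern.

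**Figure D2:**
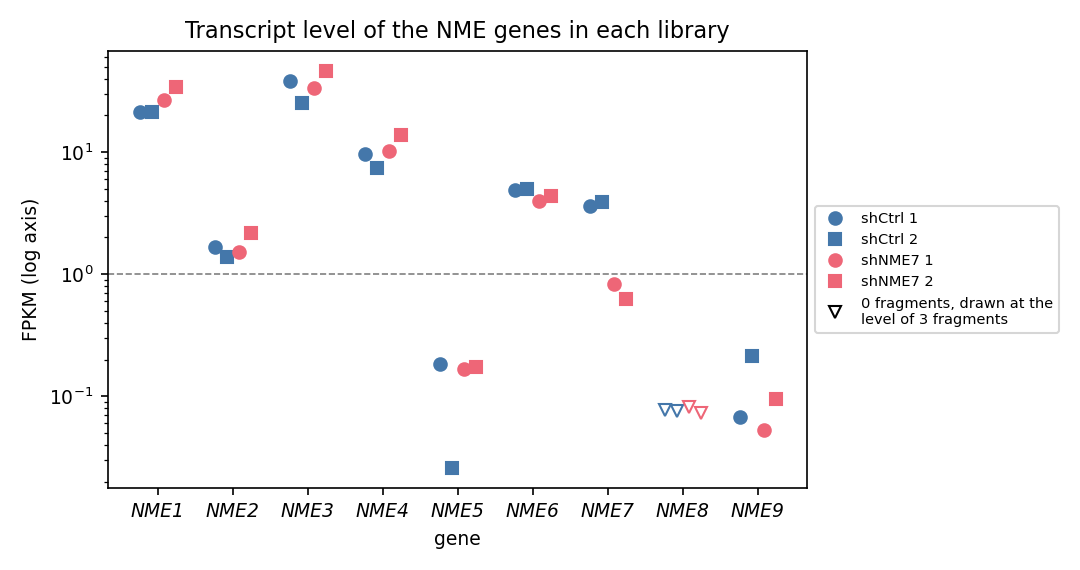
FPKM (log axis) of each NME gene in each library; blue marks shCtrl and red shNME7, circles replicate 1 and squares replicate 2, and open triangles stand for 0 fragments, drawn at the level of 3 fragments. NME7 lies at 3.64 and 3.93 FPKM in shCtrl and at 0.835 and 0.626 in shNME7, below the dashed line at 1 FPKM, and NME5, NME8 and NME9 lie near 0.

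The cytosolic enzyme gene NME1 (ENSG00000239672, chr17:51153536-51162428, plus strand) stood at 21.2 and 21.1 FPKM in shCtrl, against 26.5 and 34.3 in shNME7. Both shNME7 libraries were higher than both controls, and the shNME7 libraries lay further from each other (mean 30.4 ± 5.52, SD, n = 2) than the controls did (21.2 ± 0.0357, n = 2). The log2 difference was 0.49 (95% interval 0.09 to 0.89) and did not pass (adjusted p = 0.728 in limma-trend and 0.494 in limma-voom). In limma-trend it was 0.67 without shNME7 1 and 0.31 without shNME7 2. The lone shNME7 library was there assumed to vary like the controls. Over the 7 alternatives computed with all 4 libraries, the adjusted p of NME1 ran from 0.225 to 0.9998.

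NME2 (ENSG00000243678, chr17:51165435-51171747, plus strand), the other cytosolic enzyme gene, stood at 1.67 and 1.39 FPKM in shCtrl, against 1.52 and 2.19 in shNME7. The groups overlapped, on 59 to 98 fragments a library. The log2 difference was 0.17 (95% interval -0.31 to 0.64, limma-trend adjusted p 0.867), and without shNME7 2 it was -0.0056. The read-through NME1-NME2, which has no exon base of its own, held 0 and 6 fragments in shCtrl and 5 and 3 in shNME7. With NME1, NME2 and the read-through summed, the difference was 0.48 (SE 0.16, limma-trend adjusted p 0.728). NME1 makes up most of that sum, so its closeness to NME1 alone follows from the levels. Any fragments left uncounted in shared exons are missing from the sum as well, so it cannot show whether they matter. NME2P1 held 0, 3, 1 and 14 fragments in shCtrl 1, shCtrl 2, shNME7 1 and shNME7 2, and NME1P1 held 0 in all 4.

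**Figure D3:**
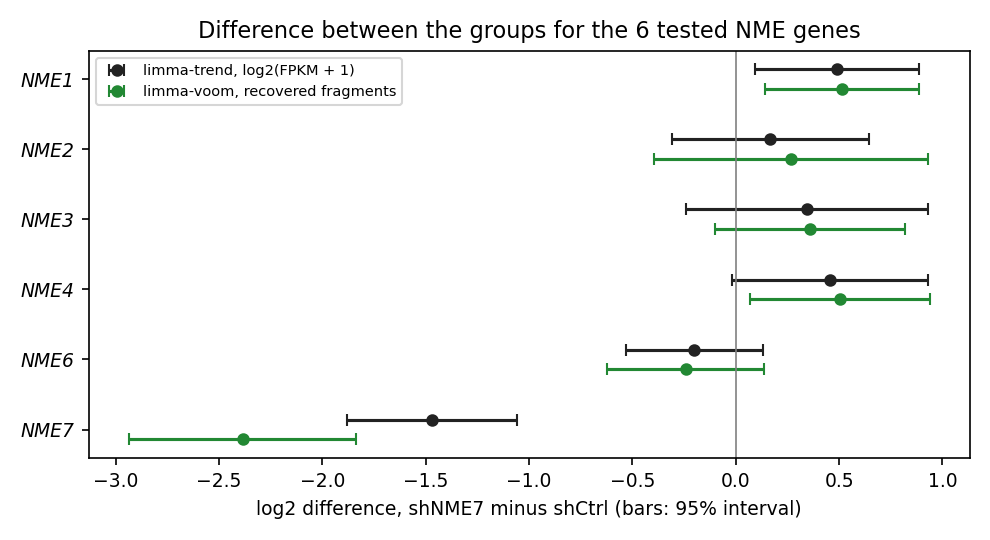
Log2 difference (shNME7 minus shCtrl) of the 6 tested NME genes in limma-trend on log2(FPKM + 1) (black) and limma-voom on recovered fragments (green); points are estimates and bars 95% intervals from 2 libraries a group. NME7 lies at -1.47 and -2.39, and the other 5 genes lie between -0.24 and 0.51, none past the adjusted threshold.

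Of the 3 genes linked to mitochondria, NME3 and NME4 lie on chromosome 16. NME3 (ENSG00000103024, chr16:1770286-1771730, minus strand) had the highest FPKM of the family, at 37.8 and 25.2 in shCtrl and 33.7 and 46.5 in shNME7. NME1 held more fragments in each library, 1159 and 1172 against 870 and 588 in shCtrl, and 1369 and 2003 against 731 and 1140 in shNME7. FPKM divides them by all annotated exon bases, 3438 for NME1 and 1445 for NME3, and NME1 carries the limit on shared exons. The groups overlapped, with shCtrl 2 the lowest and shNME7 2 the highest library (means 31.5 ± 8.92 and 40.1 ± 9.04, SD, n = 2 each). The log2 difference was 0.35 (95% interval -0.24 to 0.93, limma-trend adjusted p 0.828). With 1 library left out, it was 0.06 without shCtrl 2, 0.12 without shNME7 2, 0.57 without shNME7 1 and 0.63 without shCtrl 1. NME4 (ENSG00000103202, chr16:396725-410367, plus strand) stood at 9.66 and 7.40 FPKM in shCtrl, against 10.3 and 13.9 in shNME7. Both shNME7 libraries were higher, with shCtrl 1 close to shNME7 1, and the difference of 0.45 (95% interval -0.02 to 0.93) missed the threshold (adjusted p = 0.757 in limma-trend). When shNME7 1 was left out, the NME4 difference was 0.66 in limma-trend. It was 0.25 without shNME7 2 and 0.28 without shCtrl 2. Over the 7 alternatives computed with all 4 libraries, the adjusted p of NME4 ran from 0.243 to 0.9998. DECR2, a peroxisomal enzyme gene that shares 572 exon bases with NME4, stood at 4.71 and 4.98 FPKM in shCtrl, against 5.56 and 8.48 in shNME7 (log2 difference 0.43, limma-trend adjusted p 0.787). MAPK8IP3, a scaffold gene that shares 32 exon bases with NME3 on the opposite strand, was at 3.68 and 3.24 FPKM against 3.58 and 4.76, and its groups overlapped.

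NME1, NME2, NME3 and NME4 were each lowest in shCtrl 2 and highest in shNME7 2. NME1 was near equal in shCtrl 1 and shCtrl 2, at 21.2 and 21.1 FPKM. NME3 has 67.8% GC, above 99.0% of tested genes, NME4 62.0%, above 90.9%, NME2 55.5%, above 71.7%, and NME1 49.2%, above 51.2%. The 10% of tested genes richest in GC deviated from the mean of the 4 libraries by a median log2 of 0.09 in shCtrl 1, -0.27 in shCtrl 2, -0.10 in shNME7 1 and 0.27 in shNME7 2. This median was thus also lowest in shCtrl 2 and highest in shNME7 2. With a trend on GC content and exon length removed from each library, the difference became 0.05 for NME2, 0.10 for NME3 and 0.30 for NME4 in limma-trend, and 0.14, 0.05 and 0.32 in limma-voom. That of NME1 was 0.47 and that of NME7 (39.2% GC) -1.37 in limma-trend. The limma-trend SE fell as well, from 0.20 to 0.14 for NME2, 0.24 to 0.07 for NME3 and 0.20 to 0.07 for NME4. With the trend removed, their limma-trend adjusted p values were 0.895, 0.550 and 0.243 in that order, and none passed. The differences of NME2, NME3 and NME4 were thus smaller in limma-trend with the trend removed, and those of NME1 and NME7 changed less. GC content and exon length were removed together, and the cause of these changes was not tested.

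**Figure D4:**
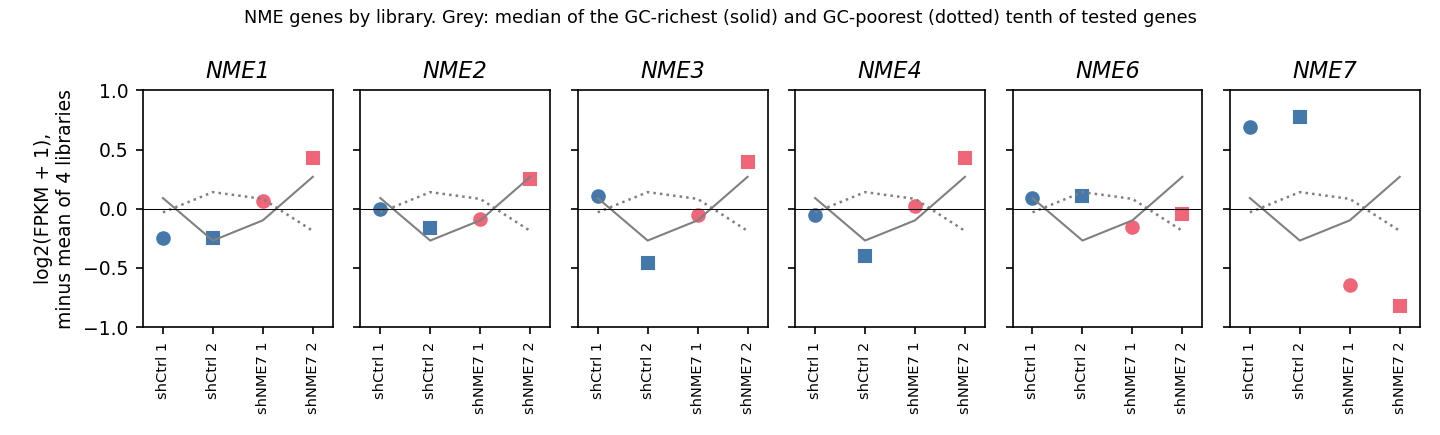
Level of each tested NME gene in each library, as log2(FPKM + 1) minus the mean of the 4 libraries; points are libraries (blue shCtrl, red shNME7), and grey lines join the medians of the 10% of tested genes richest (solid) and poorest (dotted) in GC. NME1 to NME4 are lowest in shCtrl 2 and highest in shNME7 2, as is the solid line (-0.27 and 0.27). NME1 and NME4 lie higher, and NME6 and NME7 lower, in both shNME7 libraries than in both shCtrl libraries.

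NME6 (ENSG00000172113, chr3:48290722-48301685, minus strand), for a kinase relative bound by the mitochondrial protein RCC1L, stood at 4.88 and 4.98 FPKM in shCtrl, against 3.98 and 4.36 in shNME7. Both shNME7 libraries were lower than both controls (means 4.93 ± 0.0683 and 4.17 ± 0.267, SD, n = 2 each). The log2 difference was -0.20 (95% interval -0.53 to 0.13) and missed the threshold (limma-trend adjusted p 0.827, limma-voom 0.771). FCF1P2, a pseudogene in its exons, was listed at 0. NME6 was the other tested member, beside NME7, with both shNME7 libraries below both controls, as were 18.4% of all tested genes. NME1 and NME4 were the 2 members with both above, as were 17.8%. NME2 and NME3 overlapped. Of the 5 tested members other than NME7, 4 had a higher and 1 a lower mean in shNME7, and the median difference of the 6 was 0.26, against 0.01 for all tested genes. With the GC and length trend removed it was 0.08, and with 1 library left out it ran from 0.06 (without shNME7 2) to 0.45 (without shNME7 1).

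The 3 genes known from cilia and flagella were near 0. NME5 (ENSG00000112981, chromosome 5) held 7, 1, 6 and 7 fragments in shCtrl 1, shCtrl 2, shNME7 1 and shNME7 2, or 0.0259 to 0.184 FPKM. NME9 (ENSG00000181322, chromosome 3) held 4, 13, 3 and 6 fragments in the same order, or 0.0534 to 0.216 FPKM. NME8 (ENSG00000086288, chromosome 7) had 0 fragments in each library, which allows up to 3 fragments, or 0.0724 to 0.0818 FPKM. EPDR1, which shares 72 exon bases with NME8, was at 11.1 to 12.4 FPKM with overlapping groups. At this depth no difference between the groups was detectable for these genes, and none reached the mean of 1 FPKM needed for the test. Other axonemal genes were low too: 18 of 24 stayed under 1 FPKM in every library, and FOXJ1, DNAI2 and TEKT1 were at 0 in all 4.

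Per length of all annotated exons, the order of the members in shCtrl was NME3, NME1, NME4, NME6, NME7, NME2, NME9, NME5 and NME8. Adjacent members did not overlap between libraries, apart from NME9 and NME5. NME5, NME8 and NME9 held at most 13 fragments a library, so the order among them is not resolved in either group. In shNME7 the order was NME3, NME1, NME4, NME6, NME2, NME7, NME5, NME9 and NME8, where NME3 and NME1 overlapped. NME7 thus moved from the fifth place to the sixth. Its share of the summed FPKM of the family was 4.60% and 6.12% in shCtrl and 1.08% and 0.613% in shNME7. The places of NME1 and NME2 carry the limit on shared exons given with their sequences. The place of NME7 relative to NME2 and its share of the family sum carry that limit too. The FPKM values use a library size slightly different from the plain fragment total. With fragments divided by unshared exon length and by that plain total, NME1 stood at 26.1 and 26.1 in shCtrl and 32.9 and 42.1 in shNME7. NME2 stood at 2.17 and 1.81 against 1.99 and 2.84.

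The genes nearest to NME7 in pattern were sought among 10571 tested genes averaging 100 or more fragments, by the Euclidean distance of centred log2(FPKM + 1) over the 4 libraries. The 5 nearest were the butyrylcholinesterase gene BCHE (distance 0.26), the cystine transporter gene SLC7A11 (0.27), the long non-coding RNA AL713998.1 (0.29), the glutathione-degrading enzyme gene CHAC1 (0.34) and the stress pseudokinase gene TRIB3 (0.45). BCHE stood at 4.61 and 6.16 FPKM in shCtrl, against 1.64 and 1.51 in shNME7, SLC7A11 at 22.2 and 24.9 against 10.2 and 6.71, and AL713998.1 at 6.73 and 6.95 against 1.58 and 2.02. CHAC1 was at 29.6 and 24.1 FPKM against 11.5 and 8.27, and TRIB3 at 114 and 92.0 against 47.1 and 45.6, so each of the 5 was lower in both shNME7 libraries, the pattern they were chosen for. The genes nearest to NME3 were far closer in pattern: NAPRT (0.017), CIAO2B (0.034), LSM7 (0.035), MTX1 (0.035) and TAF10 (0.036). NAPRT, which makes nicotinic acid mononucleotide, stood at 37.8, 25.5, 33.5 and 46.9 FPKM in shCtrl 1, shCtrl 2, shNME7 1 and shNME7 2, close to the values of NME3. These 5 genes have a GC content of 54.7% to 67.5%. Likeness over 4 libraries is a description only.

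None of the listed genes that act beside the family passed in limma-trend or limma-voom. Their log2 differences in limma-trend ran from -0.26 (TUBGCP3) to 0.64 (MZT2B). Of the 22 nucleoside and nucleotide kinases and CTP synthases, which make or use the same nucleotide pools, limma-trend tested 17 and limma-voom 20. In either test 0 passed. Of the 17, 10 had a higher and 7 a lower mean in shNME7. 0 of the 17 had an unadjusted p under 0.05. Their median log2 difference was 0.03, against 0.01 for all tested genes. GUK1, the guanylate kinase that supplies GDP, stood at 35.1 and 23.2 FPKM in shCtrl, against 30.9 and 46.3 in shNME7 (log2 difference 0.39, limma-trend adjusted p 0.820), and DGUOK, the mitochondrial deoxyguanosine kinase, at 23.2 and 20.1 against 23.0 and 27.7 FPKM (0.22, 0.836). Both were highest in shNME7 2, and their groups overlapped.

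Of 19 genes for proteins that bind NME kinases or remove phosphate from histidine, limma-trend tested 16 and limma-voom 17. Again 0 passed in either test. Of the 16, 10 were higher and 6 lower, and 0 had an unadjusted p under 0.05 in limma-trend (median 0.03). PHPT1, a phosphohistidine phosphatase, stood at 43.7 and 29.6 FPKM in shCtrl, against 36.3 and 57.1 in shNME7 (log2 difference 0.33, limma-trend adjusted p 0.836). ITGB1BP1, an integrin-binding adaptor, stood at 9.04 and 7.40 against 9.24 and 10.4 FPKM (0.23, 0.819), with no overlap of the groups. TIAM1 and TREX1 were listed at 0 in all libraries, and all 1515 exon bases of TREX1 are shared with other genes, so its 0 is no sign of absence.

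All 14 genes of the gamma-tubulin ring complex and its anchors, the assembly NME7 belongs to, were tested. 6 had a higher and 8 a lower mean, 0 passed in limma-trend or limma-voom, and 1 had an unadjusted p under 0.05 in limma-trend (median -0.02), close to the share of 6.68% over all tested genes. That gene, MZT2B, for a small subunit of the complex, stood at 28.8 and 22.0 FPKM in shCtrl, against 32.4 and 48.8 in shNME7 (log2 difference 0.64, limma-trend adjusted p 0.729), and its near-identical copy MZT2A at 21.3 and 12.7 against 16.9 and 29.9 (0.43, 0.836). Reads can be split between these copies, so both values are uncertain. Of the 24 axonemal genes limma-trend tested 6, 4 higher and 2 lower (median 0.04), with 0 at an unadjusted p under 0.05. limma-voom tested 13, and 0 passed in either test. SPAG1, a factor for dynein arm assembly, stood at 6.05 and 6.39 FPKM in shCtrl, against 6.88 and 6.01 in shNME7 (0.04, 0.951).

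**Figure D5:**
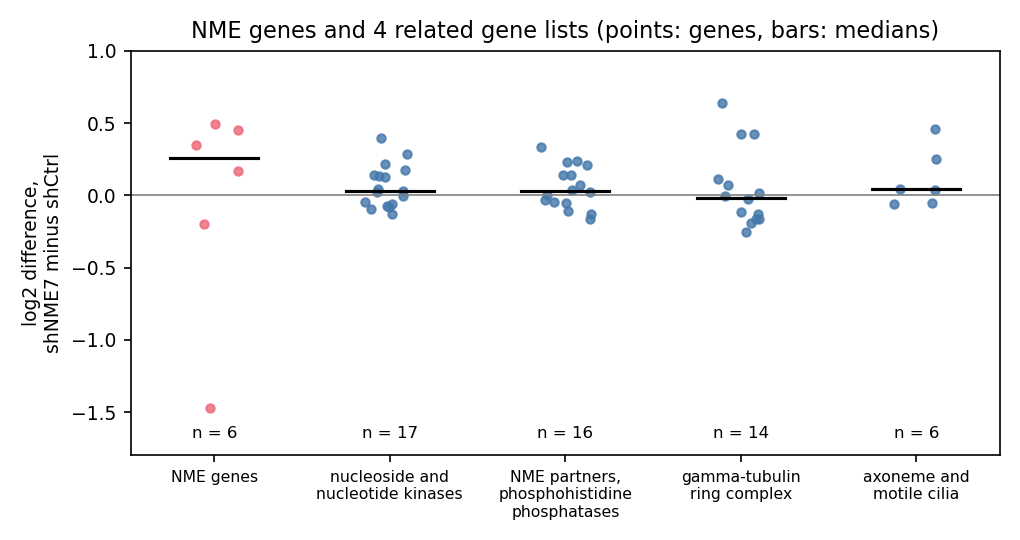
Log2 difference (shNME7 minus shCtrl, limma-trend) of the tested NME genes (red) and of the tested genes of 4 related lists (blue); points are genes and black bars medians. NME7, at -1.47, lies apart from all others shown, which range from -0.26 (TUBGCP3) to 0.64 (MZT2B).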

How the data were processed

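RNA-seq of 4 libraries was used, grouped by the sample titles. The authors deposited 1 table of FPKM values for each library, as its header names them. The tool HISAT2 2.0.5 and the build hg18 are listed per the submitters' processing notes. The sources used here name no counting tool or annotation. Every gene ID matched GENCODE release 29 (GRCh38), which gave names, exons and the coordinates printed. FPKM times summed exon length gave whole multiples of 1 step per library (100% of genes above 0 within 0.01), so fragments were recovered. The exon lengths behind the FPKM values thus match GENCODE 29, which is on GRCh38 and not on the listed hg18.

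limma-trend (limma 3.58.1, R 4.3.3) was fitted to log2(FPKM + 1) of the 12866 genes with a mean of at least 1 FPKM, with Benjamini-Hochberg adjustment over all of them and a two-sided threshold of 0.05. Fold changes on this scale understate those of low genes. limma-voom used the 15112 genes averaging 10 or more fragments. The loess fit to GC content and length (span 0.3) was computed for genes with a GC value. Coding sequences were aligned with Biopython 1.88.

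The members and lists were chosen with earlier results of these data known. Named genes were all members, the read-through and pseudogenes, genes sharing exons or starting within 1000 bases, up to 4 genes past the threshold per list (otherwise the 2 with the largest difference and at least 5 FPKM), and the 5 genes nearest to NME7 and to NME3. TUBGCP3, TIAM1, TREX1 and single markers were named after their values were seen.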

Additional observations from a re-analysis of the deposited data

How the results depend on the processing

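With 2 libraries a group, the number of calls rested on the test more than on the direction of any member. limma-trend called 0 genes, against 16 in limma-voom, 13 in limma-voom and 1 in limma-trend after removal of the trend on GC and length, and 11 among protein-coding genes only. Leaving out 1 library gave 104 to 650 calls, where a group's lone library is taken to vary as the other group does. Of the NME genes 0 passed in limma-trend, 1 (NME7) in limma-voom with and without the trend removed and among protein-coding genes only, and 1 to 3 with a library left out, the 3 without shNME7 1 being NME7, NME1 and NME4. NME7 stayed lower in all 15 alternatives. It was called in 4 of the 7 computed with all 4 libraries. These were limma-voom (-2.39), limma-voom with the trend removed (-2.26), protein-coding genes only and a block on replicate number (both -1.47). With a library left out, NME7 was at -1.56 to -1.38 in limma-trend and -2.59 to -2.17 in limma-voom (-2.44 and -2.33 without shCtrl 1 or shCtrl 2). The sum of NME1, NME2 and the read-through ran from 0.30 to 0.66 with a library left out, and did not pass in any fit with all 4 libraries. NME2 ran from -0.0056 (without shNME7 2) to 0.34 (without shNME7 1) in limma-trend, and from -0.0055 to 0.52 in limma-voom, and no other tested member changed sign. The cause of these changes was not tested beyond the assumption named.

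The labels do not say whether replicate numbers pair the libraries. Same-numbered libraries deviated in opposite directions (correlation across genes -0.35, without removal of the GC and length trend), which cannot settle it. With the replicate block limma-trend called 122 genes and 1 NME gene, NME7, whose difference stayed at -1.47. A crossed pairing, chosen after seeing the data, called 0 genes and 0 NME genes. Low fragment counts limit NME2, NME5, NME8 and NME9.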
